A study of Homo sapiens with 24 samples.

Results

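The replication-dependent histone genes encode the linker histone H1 and the core histones H2A, H2B, H3 and H4. They were taken here as the rows of the deposited count tables whose symbol starts with HIST1H, HIST2H, HIST3H or HIST4H and does not end as a pseudogene name does. That gave 76 rows with 75 symbols of the 60658 genes counted, and 11 further histone rows were left out by the name ending. Rows that GENCODE 29 annotates as pseudogenes but that lack such a name stayed in, namely HIST2H2BA, HIST2H2BB, HIST2H2BD and HIST3H2BA. The cells were labelled SH-SY5Y, a human neuroblastoma line, and were harvested 48 h after transfection in 4 setups meant to deplete the circular RNA ciRS-7, also called CDR1as. In the agoshRNA setup the cells received a vector for a hairpin RNA against ciRS-7. In the gRNA and pre-gRNA setups they received a plasmid for the RNA-cutting nuclease CasRx fused to GFP together with a plasmid for a guide in the gRNA or the pre-gRNA form. The syn-gRNA setup used a chemically synthesised guide, and the labels used here do not say how it or CasRx was delivered. Each setup had 3 knockdown libraries (KD) and 3 libraries of its own non-targeting control (NTC), 24 libraries in 8 groups, named here by setup, arm and the letter A, B or C of the count column. The study asked whether any of the 4 approaches changes messages other than its target. All RNA was selected for poly(A) and sequenced without strand information. The transfected constructs differ from one setup to the next in both arms, so setup, delivery and the handling of its libraries cannot be told apart.

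Histone messages of this kind come from intronless genes that lie in clusters and are transcribed mainly while DNA is replicated. Their pre-messages are cut just after a short stem-loop that is bound by the stem-loop-binding protein SLBP, with the U7 small nuclear ribonucleoprotein pairing to a sequence further downstream, and the mature message has no poly(A) tail. Many of these genes also hold ordinary polyadenylation signals beyond the stem-loop, and tailed histone messages that read through to them are known from cultured and differentiating cells. In poly(A)-selected libraries a histone read can therefore come from such a tailed form or from untailed message carried through the selection, and the counts do not separate the sources.

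The stem-loops are shown for 8 members whose levels are described further on, because where the annotated transcript stops relative to this element is what separates the processed from the extended form. Each line gives the stem-loop in capitals and the bases that follow it in lower case, 5′ to 3′ on the message strand, from the GENCODE 29 transcripts (GRCh38).
HIST2H2BE: GGCTCTTTTCAGAGCCacccacctaatcac
HIST3H2A: GGCTCTTTTCAGAGCCacctactatctcga
HIST3H2BB: GGCTCTTTTCAGAGCCacccacacgatcaa
HIST1H3H: GGCTCTTTTCAGAGCCacccacatgcgcgc
HIST1H2BD: GGCTCTTTTAAGAGCCacgcatgttttcaa
HIST1H4E: GGCCCTTTTCAGGGCCgcccacagttttcc
HIST1H4H: GGCCCTTTTCAGGGCCgcccacttttttca
HIST1H4I: GGCCCTTTTTAGGGCCcctaagctttcaac

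A stem of 6 base pairs that opens with GG, closed by a loop of 4 bases that starts TTT, was searched in every annotated transcript. It was found in 28 of the 70 histone rows with transcripts in GENCODE 29 (40.0%) and in 82 of all 58676 genes (0.140%). Only 4 spellings occurred among the members. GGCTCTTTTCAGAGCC was found in 17 rows of the H2A, H2B and H3 families, and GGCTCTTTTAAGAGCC in 4 rows of H2B and H3. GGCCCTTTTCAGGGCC stood in 4 rows and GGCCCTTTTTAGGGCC in 3 rows, all of them H4 genes. In HIST2H2BE the stem-loop lies on chromosome 1 at 149886188 to 149886203, minus strand, and its annotated transcript of 2194 bases goes on for another 1729 bases. HIST3H2BB continues for 1917 bases beyond it, HIST1H4E for 1022, HIST1H3H for 769 and HIST3H2A for 390. In 19 rows a transcript went on for more than 100 bases past the stem-loop, and these rows held 49.8% of all histone counts (as summed CPM, which is counts scaled to the library's total). The 9 rows whose transcripts end within 100 bases of it held 3.81%. The 42 rows with no stem-loop in their transcripts held 45.6%, and 36 of them have a length that is a multiple of 3, as 7 of the 19 extended rows also have. Whether they hold a stem-loop of another spelling was not examined. HIST1H1C (642 bases) and HIST1H2BK (381 bases) are among these 42 rows. The letters TATAAA stood on either strand within the promoter window, 250 bases before to 50 after the start, of 38 of the 57 members in the RefSeq promoter table (66.7%), against 12.0% of all 27305 promoters, and CCAAT stood in 84.2% against 35.7%.

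Library totals ranged from 10994974 to 16233777 counts. The targeted transcript CDR1-AS had 0 to 15 counts in the KD libraries and 2 to 16 in the NTC libraries, too few to check the labels, since a circular RNA has no poly(A) tail. Of 12 genes typical of noradrenergic neuroblastoma cells, 5 lay above 10 CPM, among them GATA2, HAND1 and TBX2, and 6 under 1 CPM, among them PHOX2A, STMN2 and ELAVL4. Of 8 genes of the kidney lineage 6 lay above 10 CPM, HOXA9 and HOXA10 among them, and 1 under 1 CPM, PAX8. The part that cell identity plays in the results was not tested. Libraries with the same letter in the KD and NTC arm of a setup resembled each other, and nothing in the labels says that libraries came from separate cultures, so p-values measure the spread between these libraries only.

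Histone rows together took 0.0132 to 0.0626% of a library's counts. Of the 76 rows, 31 had a mean of at least 10 counts, 30 stayed under 10 counts in every library and 4 had no count at all. H2B genes held 44.6% of the summed histone CPM, H1 genes 22.7%, H2A genes 17.0%, H4 genes 9.50% and H3 genes 6.21%. The 10 most abundant members held 74.3 to 85.9% of the histone sum in a library, and the top pair, HIST1H1C and HIST2H2BE, 28.2 to 50.4%. A list of 16 genes chosen as known to give tailed messages held 64.9 to 79.7%. By position (hg19), the HIST1 cluster on chromosome 6 from 25726360 to 27861621 held 63.3% of the sum, HIST2 on chromosome 1 held 23.4%, HIST3 on chromosome 1 from 228612546 to 228652327 held 13.1%, and HIST4H4 on chromosome 12 held 0.228%.

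Per length, the order changed. HIST1H1C, a linker histone gene and the most abundant row with 71.5 CPM, stood at 111 CPM per kilobase and HIST1H2BK at 90.8, followed by HIST3H2A at 34.1 and HIST2H2BE at 29.7. HIST2H2BE was second by CPM with 65.1. HIST1H1C and HIST1H2BK have short models without the stem-loop, HIST3H2A and HIST2H2BE models that go on past it, so levels per length depend on how far each model was drawn. The 4 members known from the testis were at or near 0. HIST1H2AA and HIST1H2BA had no count in any library, which allows 3 counts each, or 0.273 CPM in the shallowest library, and HIST1H1T and HIST3H3 had at most 3 counts.

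The histone sum differed more between setups and between letters than between KD and NTC. In the agoshRNA libraries A, B and C it was 141, 151 and 191 CPM in the KD arm and 132, 170 and 192 CPM in the NTC arm. In the gRNA setup it was 366, 364 and 188 CPM in KD and 360, 386 and 190 CPM in NTC. Library C was thus the low one in both arms, and its level fell within the range of the agoshRNA libraries. In the pre-gRNA setup the KD libraries had 400, 462 and 195 CPM and the NTC libraries 367, 412 and 218 CPM, again with C low in both arms. In the syn-gRNA setup they had 353, 609 and 626 CPM in KD and 325, 540 and 577 CPM in NTC, with A low in both arms. Within a setup, the ratio of KD to NTC at the same letter ran from 0.887 to 1.13 and was above 1 in 7 of 12 pairs. By setup it was above 1 in library A of agoshRNA, in A of gRNA, in A and B of pre-gRNA and in all 3 pairs of syn-gRNA, where it was 1.09, 1.13 and 1.09. In bulk libraries, fewer cells with a message and less message per cell cannot be told apart. Between letters of 1 group the highest sum was 1.36 to 2.37 times the lowest, and over all 24 libraries 4.74 times.

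**Figure D1:**
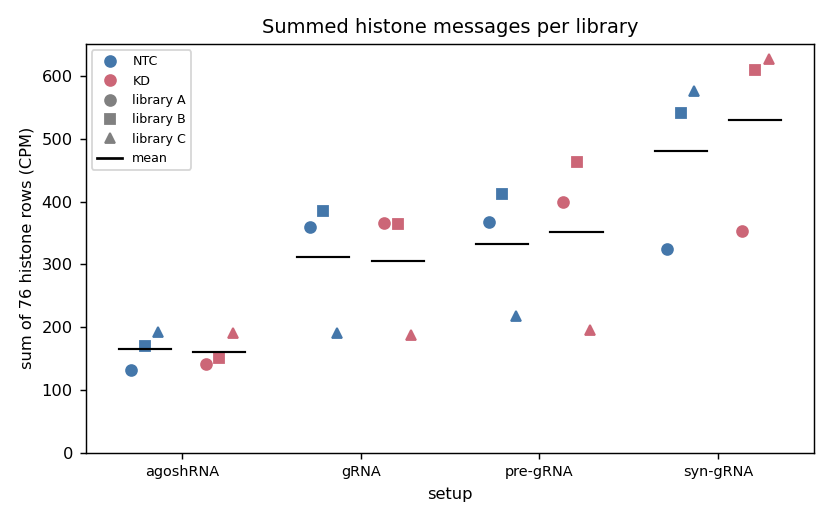
Summed CPM of the 76 histone rows in each library (y) by setup (x), with blue for NTC, red for KD, a marker shape for each letter and a bar for the mean of 3. The letters keep their order between the KD and NTC arm in agoshRNA, pre-gRNA and syn-gRNA, while A and B swap in gRNA, and the agoshRNA libraries all lie under 193 CPM.

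Between the NTC groups, the clearest difference was that histone messages were higher in the syn-gRNA than in the agoshRNA controls. Group pairs were tested with the DESeq2 Wald test in 1 model of the 24 libraries, in which 43 histone rows and 20172 genes passed the count filter, and a gene was called at a Benjamini-Hochberg adjusted p under 0.05. In syn-gRNA against agoshRNA all 43 rows were higher, with a median log2 difference of 1.50 against 0.01 for all genes. Of these rows 13 were called, all of them higher, while 1.03% of all genes were called higher and 1.84% in either direction. The KD groups of those setups, which are other libraries in the same model, called 16 rows, all higher, against 1.73% of all genes higher and 3.14% in either direction. All 13 rows called in the controls were among them, which is 13 of 13 in one list and 13 of 16 in the other. Deviations of same-letter KD and NTC libraries from their group means correlated by 0.311 to 0.956. The KD groups are therefore not an independent repeat, and the 6 libraries of a setup are not independent of each other. With both arms together, all 6 syn-gRNA libraries lay above all 6 agoshRNA libraries for 25 of the 43 rows, as they did for 4.53% of all genes. The 25 are not all separate genes: HIST2H2AA4 is among them on 2 rows with identical counts, and so are HIST1H3J and HIST1H2AM, which overlap. The count depended on the tool: edgeR's quasi-likelihood test called 1 row, HIST2H2BE, and 16 genes in all, with 25 histone rows at an unadjusted p under 0.05 against 27 with DESeq2. Leaving out NTC libraries, the count was 2 without agoshRNA A, without syn-gRNA B or without syn-gRNA C, and 9 to 14 without any other library. HIST2H2BE and HIST2H2BF kept their calls in all 6 of these fits, and every other called row lost its call in 3 to 5 of them.

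Of the linker histones, HIST1H1C (chromosome 6, 26056015 to 26056656, hg19) was 20.8, 29.9 and 46.8 CPM in the agoshRNA NTC libraries A, B and C and 61.5, 101 and 113 CPM in the syn-gRNA NTC libraries. The groups do not overlap, but their replicates spread widely, and the log2 difference of 1.50 (SE 0.66) was not called by DESeq2 (adjusted p = 0.271). HIST1H1C in the pre-gRNA NTC libraries was 94.2, 151 and 34.4 CPM, so that library C alone lay in the agoshRNA range. HIST1H1E, another linker histone gene at a lower level, was 1.29, 1.45 and 1.22 CPM in agoshRNA NTC and 3.69, 6.14 and 4.34 CPM in syn-gRNA NTC. All 3 syn-gRNA values lie above the agoshRNA values, and the log2 difference of 1.85 (SE 0.55) was called with an adjusted p of 0.0431 (DESeq2). That call was lost with edgeR and in 5 of the 6 fits that left out a library.

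Of the H2A genes, 3 of 10 tested rows were called. HIST3H2A, the most abundant of them, was 19.5, 14.6 and 17.1 CPM in agoshRNA NTC and 23.4, 41.3 and 46.2 CPM in syn-gRNA NTC, and its log2 difference of 1.15 (SE 0.54) was not called by DESeq2 (adjusted p = 0.325). HIST1H2AC was 2.28, 3.75 and 2.60 CPM in agoshRNA NTC and 7.25, 10.8 and 11.8 CPM in syn-gRNA NTC. That rise was called, with a log2 difference of 1.79 (SE 0.42) and an adjusted p of 0.00563 (DESeq2). HIST1H2AG and HIST1H2AI were also called higher, by 1.66 and 2.06 on the log2 scale.

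H2B members gave 6 of the 13 calls. HIST2H2BE, annotated on chromosome 1 from 149856009 to 149858202 (hg19) with a long extension past the stem-loop, was 17.9, 26.2 and 25.8 CPM in agoshRNA NTC, 55.7, 67.9 and 24.4 CPM in gRNA NTC, 36.7, 49.8 and 36.2 CPM in pre-gRNA NTC and 82.8, 158 and 149 CPM in syn-gRNA NTC. The lowest syn-gRNA value lies above every library of the other setups. Its log2 difference was 2.49 (SE 0.45) against agoshRNA, with an adjusted p of 7.73e-05 (DESeq2), and it stayed under 0.05 when any 1 library of the pair was left out and with edgeR. The KD libraries gave 3.04 (SE 0.45) for the same pair of setups. HIST2H2BF, at 0.912, 1.45 and 1.06 CPM in agoshRNA NTC and 4.56, 10.9 and 10.7 CPM in syn-gRNA NTC, differed by 2.94 (SE 0.56) and was called in all 6 fits that left out a library. It shares 17.6% of its 100-base windows with other genes, HIST2H2BE among them, so some reads of the pair cannot be assigned. HIST1H2BO, HIST3H2BB, HIST1H2BD and HIST1H2BJ were called with log2 differences of 2.32, 1.82, 1.57 and 1.45. HIST1H2BK, the most abundant row after HIST1H1C and HIST2H2BE, was steadier, with 21.0, 27.4 and 29.4 CPM in agoshRNA NTC and 33.0, 42.2 and 42.4 CPM in syn-gRNA NTC. Its log2 difference of 0.60 (SE 0.30) was not called by DESeq2 (adjusted p = 0.378).

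Among H3 genes, HIST1H3H was 1.75, 4.41 and 4.71 CPM in agoshRNA NTC and 9.39, 20.3 and 25.3 CPM in syn-gRNA NTC. These groups do not overlap, and the log2 difference of 2.33 (SE 0.52) was called with an adjusted p of 0.00294 (DESeq2). HIST1H3B, called by 2.35, stood at 5 to 14 counts in the agoshRNA libraries of both arms. HIST1H3J was higher by 1.43 (SE 0.71) and was not called. HIST1H2AM has 88.0% of its exon bases inside HIST1H3J and never had more counts than it in any of the 24 libraries, so these rows largely count the same reads.

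H4 genes split. HIST1H4I, the most abundant, kept within 11.3 to 23.9 CPM over all 24 libraries. HIST1H4E was 0.608, 1.25 and 1.54 CPM in agoshRNA NTC and 3.22, 6.07 and 8.22 CPM in syn-gRNA NTC, and was called with a log2 difference of 2.36 (SE 0.63; DESeq2 adjusted p = 0.0176). HIST1H4H (chromosome 6, 26277837 to 26285866, hg19) followed another order. It was 0.380, 0.592 and 0.568 CPM in agoshRNA NTC, 7.49, 4.99 and 3.03 CPM in gRNA NTC, 7.95, 3.69 and 2.25 CPM in pre-gRNA NTC and 1.28, 0.374 and 0.921 CPM in syn-gRNA NTC. It was thus high with plasmid-encoded guides and low in the other setups, where it had 3 to 19 counts a library.

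HIST1H4H was the single histone row called in gRNA against agoshRNA NTC, with a log2 difference of 3.18 (SE 0.61; DESeq2 adjusted p = 0.00108), where 0.0496% of all genes were called. It was also the single one in pre-gRNA against agoshRNA NTC, at 3.12 (SE 0.61; adjusted p = 0.00174), where 0.0347% were. Both calls were lost with edgeR, and without agoshRNA NTC A or library A of the other group. In the KD arms HIST1H4H was called for pre-gRNA (2.71, SE 0.60; DESeq2 adjusted p = 0.0170; 0.0446% of all genes) and not for gRNA (2.09, SE 0.61; adjusted p = 0.460), a pair in which no histone row and 0.0446% of all genes were called. With HIST1H4H counted, 42 of 43 rows were higher than in agoshRNA in gRNA NTC, with a median of 0.85, and 39 of 43 in pre-gRNA NTC, with a median of 1.07. All 6 gRNA libraries lay above all 6 agoshRNA libraries for 8 rows, against 0.263% of all genes, and all 6 pre-gRNA libraries for 13 rows, against 0.213%. HIST1H4I was among both, and among the rows with that separation in syn-gRNA. These comparisons share the agoshRNA libraries and the filter that admits rows through any setup.

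Between gRNA and pre-gRNA NTC no histone row was called (0.0% of all genes), none had an unadjusted p under 0.05, and edgeR called none. The median log2 difference of the members was 0.02. Against these setups the syn-gRNA controls showed fewer differences. In syn-gRNA against gRNA NTC, HIST1H2BO (2.03) and HIST2H2BE (1.55) were called higher and HIST1H4H lower (-2.45), 3 of 43 rows against 1.32% of all genes. In syn-gRNA against pre-gRNA NTC, HIST2H2BF (1.75), HIST1H3H (1.68) and HIST2H2BE (1.66) were called higher and HIST1H4H lower (-2.40), 4 of 43 rows against 3.25% of all genes. edgeR called none of these, and leaving out 1 library moved the counts between 0 and 7 in both pairs. The KD groups called 5 rows in syn-gRNA against gRNA (1.58% of all genes) and 4 in syn-gRNA against pre-gRNA (2.52%). HIST2H2BE was among the calls of both arms in both pairs. HIST1H3E, another H3 gene, was called lower in syn-gRNA than pre-gRNA KD by 2.03 on the log2 scale and not between the controls (-1.08). All 6 syn-gRNA libraries lay above all gRNA libraries for 4 rows (4.61% of all genes) and above all pre-gRNA libraries for 4 rows (6.21%), and HIST1H4H alone lay wholly below pre-gRNA (9.94%).

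**Figure D2:**
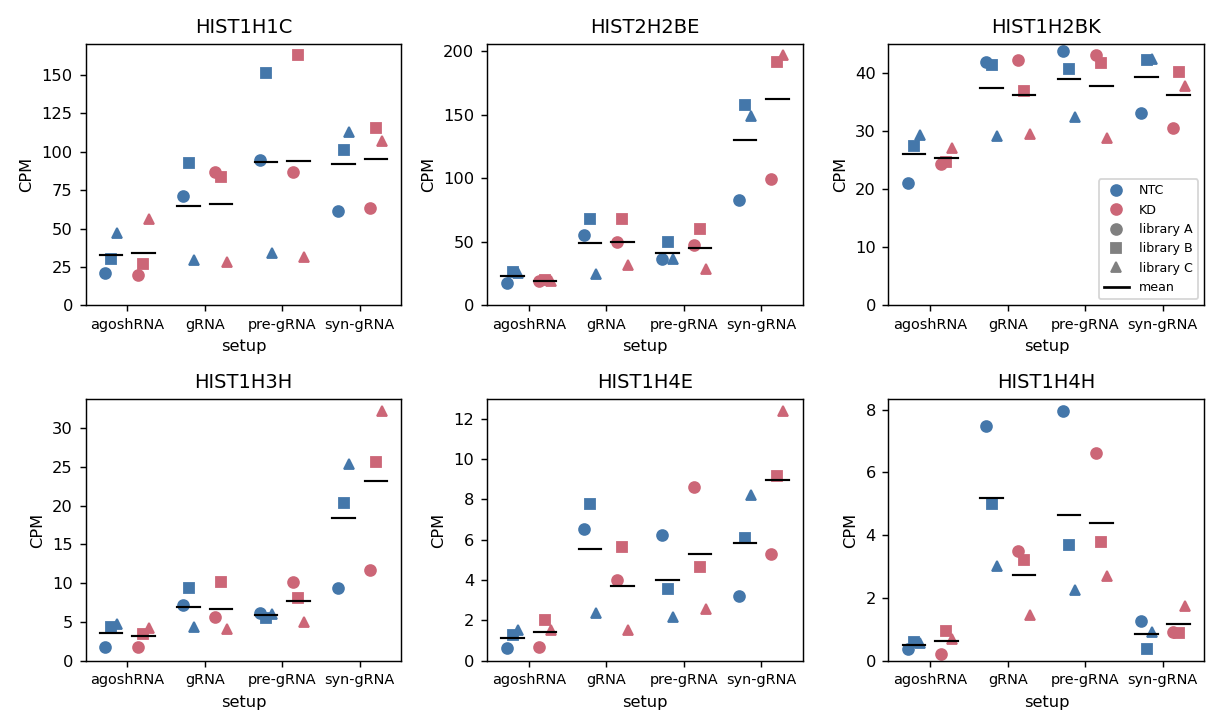
CPM of 6 histone genes in each library (y, from 0) by setup (x), with blue for NTC, red for KD, a marker shape for each letter and a bar for the mean of 3. HIST2H2BE and HIST1H3H are highest in the syn-gRNA libraries, HIST1H4H is highest in gRNA and pre-gRNA, and HIST1H2BK lies within 21.0 to 43.8 CPM.

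By family, the median log2 difference of syn-gRNA against agoshRNA NTC was 1.86 for the 3 tested H1 rows, 1.64 for 10 H2A rows, 1.51 for 14 H2B rows, 1.36 for 6 H3 rows and 1.12 for 10 H4 rows. In gRNA against agoshRNA NTC the order was another one, with 1.84 for H4 and 0.53 for H2B. The H2B family also supplied the 3 rows called in the KD arm and not in the NTC arm of syn-gRNA against agoshRNA: HIST1H2BF (3.55, SE 0.99), HIST1H2BC (2.20, SE 0.66) and HIST2H2BD (2.02, SE 0.54), the last annotated as a pseudogene. In agoshRNA KD libraries A, B and C they stood at 0.219, 0.0 and 0.086 CPM, 0.146, 0.359 and 0.343 CPM, and 0.146, 0.647 and 0.685 CPM. These differences thus rest on few counts in agoshRNA, and none of the 3 rows passed the count filter on the agoshRNA libraries alone. Whether the arms differ for these rows was not tested. A longer annotated model of HIST2H2BD, with 3612 exon bases, overlaps a HIST2H2BC model over 55.1% of them. The counted rows, of 493 bases for HIST2H2BD and 580 for HIST2H2BC, do not overlap.

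Further members showed both orders. HIST3H2BB had medians over 6 libraries of 6.80 CPM in agoshRNA, 10.7 in gRNA, 10.6 in pre-gRNA and 27.7 in syn-gRNA, and HIST1H2BO of 0.604, 0.708, 1.38 and 4.11 CPM. These H2B genes were highest in syn-gRNA. HIST2H4A, an H4 gene, had 0.310, 1.45, 2.08 and 0.628 CPM in the same order of setups, and HIST1H3E 0.846, 2.29, 2.83 and 1.32 CPM, so both were highest in pre-gRNA. HIST1H2BN had 3.26, 4.53, 4.75 and 4.93 CPM. HIST2H4A shares 94.9% of its windows with other genes, so its reads may belong to another copy.

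Most expressed members were lowest in the agoshRNA setup, while the setup with the highest level varied. Of the 31 rows with a mean of at least 10 counts, 29 had their lowest group mean in an agoshRNA group. The highest group mean lay in a syn-gRNA group for 20 and in a gRNA or pre-gRNA group for 11. The highest group mean was 1.55 to 12.4 times the lowest, with a median of 3.88 times, and it exceeded 2 times in 28 rows. Such ratios are never under 1 and grow with noise at low counts, and neither they nor these counts were computed over all genes. The 12.4 was HIST1H2AD, at 0.144 CPM in agoshRNA KD with library C at 0. Of its exon bases, 98.0% lie in another annotated gene.

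RNAs outside the histone set that have no poly(A) tail differed between the setups. Small nucleolar and Cajal body RNAs summed to 308 to 707 CPM in the agoshRNA libraries, 349 to 798 in gRNA, 382 to 480 in pre-gRNA and 1157 to 2725 in syn-gRNA. The long nuclear RNA MALAT1 stood at 1277 to 2995 CPM in the syn-gRNA libraries and at 81.2 to 1584 CPM in the others. Every syn-gRNA library lay above the gRNA and pre-gRNA libraries for both measures, while the agoshRNA, gRNA and pre-gRNA ranges overlap. Their part in the histone differences was not tested. By annotated transcript end, the median log2 difference of syn-gRNA against agoshRNA NTC was 1.80 for the 15 tested rows with a long extension past the stem-loop, 1.81 for the 6 that end near it and 1.45 for the 19 without it. For tested genes of the list known for tailed messages it was 1.57 (15 rows) and for the other 28 rows 1.47.

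Between KD and NTC no histone row was called in any setup. Each setup was tested on its own 6 libraries with DESeq2, in a model that leaves out the letters pairing them. In agoshRNA 0 of 23 tested rows were called (0.0% of all genes), and 0 had an unadjusted p under 0.05 (0.0%). In gRNA 0 of 35 were called (0.0%) and 1 had an unadjusted p under 0.05 (0.0925%). In pre-gRNA 0 of 35 were called (0.0%) and 0 had such a p (0.0107%), and in syn-gRNA 0 of 33 (0.0%) and 0 (0.297%). The shares of all genes at an unadjusted p under 0.05 lie far under that level, so the test without letters was conservative. edgeR also called none in any setup. The members' median log2 differences were 0.01, 0.03, 0.10 and 0.09 in that order, beside 0.06, 0.02, 0.01 and 0.00 for all genes. A typical row had an SE of 0.57, 0.55, 0.62 and 0.40 on that scale. A change of the size of 1 SE would not have been seen, nor would clearly larger ones. HIST1H3A in gRNA was not called at 1.495 (SE 0.665). In the authors' deposited tables no member had an adjusted p under 0.05 in any setup either. The only member with an unadjusted p under 0.05 there was HIST1H3E in gRNA. In the authors' deposited table from DESeq2 its unadjusted p was 0.0231 and its adjusted p 1.0, and HIST1H3A had an unadjusted p of 0.0631.

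The row with an unadjusted p under 0.05 in the fit made here was another one, HIST1H3A. It was 1.79, 1.05 and 0.940 CPM in gRNA KD, which is 24, 14 and 13 counts, and 0.550, 0.680 and 0.222 CPM in gRNA NTC. All 3 KD libraries lie above the NTC libraries. The log2 difference was 1.49 (SE 0.67) with an unadjusted p of 0.0245 and an adjusted p of 1.0 (DESeq2), and in the syn-gRNA setup it was -0.24 (SE 0.68). HIST1H3E was 2.01, 1.35 and 1.52 CPM in gRNA KD and 4.40, 2.57 and 2.73 CPM in gRNA NTC, a log2 difference of -0.88 (SE 0.46; DESeq2 unadjusted p = 0.0579). HIST1H4H in gRNA differed by -0.79 (SE 0.51). In the other setups the rows with the lowest p were HIST1H2AI (-0.51), HIST1H2BJ (-0.36) and HIST2H2BE (-0.23) for agoshRNA. They were HIST1H2AM (0.80), HIST1H3J (0.70) and HIST1H2AG (0.37) for pre-gRNA, and HIST1H4E (0.59), HIST1H3E (-0.75) and HIST1H1E (0.37) for syn-gRNA. Each of these had an adjusted p of 1.0 (DESeq2). With the letter as a block, unadjusted p (DESeq2) in pre-gRNA was 0.00514 for HIST1H2AM and 0.00718 for HIST1H3J, rows that largely count the same reads. In syn-gRNA it was 0.00806 for HIST1H4E. In gRNA it was 0.0176 for HIST1H4H, 0.0225 for HIST1H3A and 0.034 for HIST1H3E. No row was called with the block either. A likelihood ratio test of whether the KD effect differs among the 4 setups called 0 of 43 rows (0.0% of all genes), and 0 had an unadjusted p under 0.05 (0.0843%). That test leaves the letters out, and with the letter within a setup as a block it called 0 rows, with 2 at an unadjusted p under 0.05. Without the block the lowest was HIST1H3A with an unadjusted p of 0.311 (DESeq2).

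**Figure D3:**
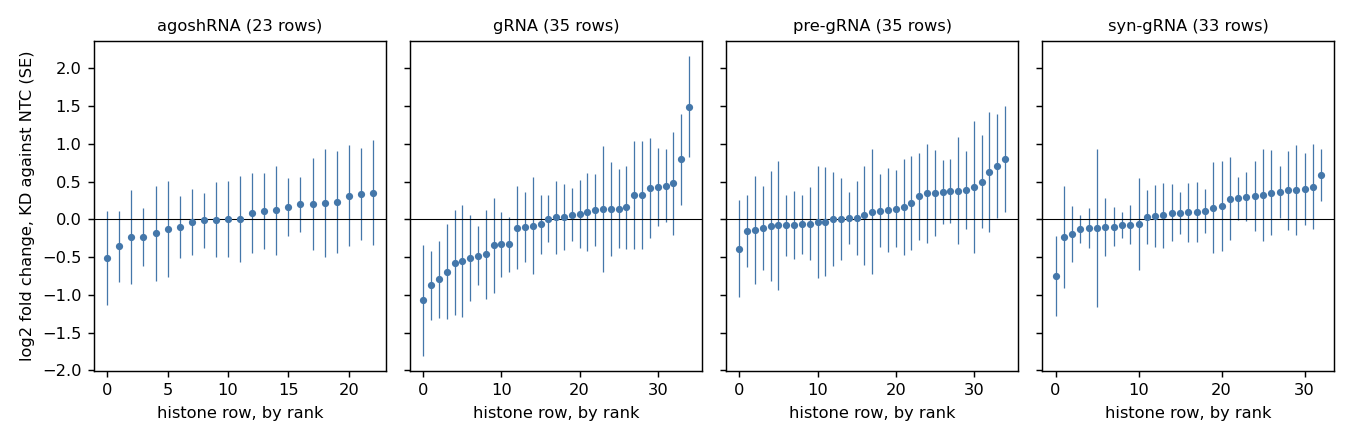
Log2 difference of KD from NTC (y) with its standard error (bars) for each tested histone row, ranked within its setup (x). Points scatter around 0 in all 4 panels, and the highest, HIST1H3A in gRNA at 1.49, rests on 24 counts or fewer per library.

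The lists for histone message processing, histone chaperones, S phase and replacement histones gave few calls. Of 26 genes for processing, such as SLBP, NPAT and the cleavage factors, all were tested and 0 were called in any comparison of KD with NTC, of NTC groups or of KD groups (DESeq2). SLBP was 95.0 CPM on average in agoshRNA and 80.8 in syn-gRNA. Of 14 histone chaperones 0 were called. Of 20 genes of the S phase of the cell cycle, when DNA is copied, only MCM4, a subunit of the replicative helicase, was called. It was lower in syn-gRNA NTC than in agoshRNA NTC (-0.64, SE 0.17; DESeq2 adjusted p = 0.0175) and gRNA NTC (-0.58, SE 0.17; adjusted p = 0.0409). The summed S phase list was 2914 to 3331 CPM in syn-gRNA libraries and 3273 to 4311 CPM in the others. Of 11 genes listed as replacement histones, H3F3A was called higher in syn-gRNA NTC than in gRNA NTC (0.87, SE 0.24) and pre-gRNA NTC (0.83). It was also called higher in syn-gRNA KD than in agoshRNA KD (0.80) and pre-gRNA KD (0.78). H2AFY2, a macroH2A gene, was called lower in syn-gRNA than in pre-gRNA NTC (-0.97, SE 0.29).

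Several members cannot be counted apart from others. Of 70 rows with transcripts, 42 had no 100-base window in common with another gene, 17 shared over 50% of their windows and 6 shared all. HIST2H2AA4 is on 2 rows with identical counts, HIST1H2AK lies inside HIST1H2BN on the other strand, and HIST1H3D lies inside another annotated gene, so values of these rows are uncertain.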

How the data were processed

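Poly(A)-selected RNA of 24 libraries was sequenced as paired reads of 100 nt without strand. Per the submitters' processing notes, reads were trimmed with Trim Galore, aligned to hg19 with STAR 2.7.3a, counted with featureCounts and compared with DESeq2; counting settings and annotation release are not given in the sources used here. The authors deposited raw counts per gene in 4 tables that hold the same counts, with the gene length in bases per the file headers. The deposited baseMean is a normalised mean signal, beside a log2 fold change and a p-value for each setup. The 24 columns of normalised counts were not used.

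From the counts, CPM used library totals. A gene was tested if 3 or more of the libraries in the model had 10 or more counts, with DESeq2 1.42.0 (Wald test, R 4.3.3): KD against NTC on the 6 libraries of a setup, group pairs in 1 model of all 24 libraries, and a likelihood ratio test for KD effects that differ among setups. Alternatives were edgeR 4.0.16, other scaling and filters, GC offsets, a replicate block and leaving out libraries. Named genes are the most abundant members overall and per family, called members, the 3 with the lowest p per setup, members of the lists of tailed and testis messages, and called genes of the context lists; any other gene was picked with its values in view. The members and lists were chosen with earlier results of these data known.

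The letters A, B and C of the columns are not tied to the replicate numbers in the labels. Deviations of same-letter KD and NTC libraries from their group means correlated by 0.311 to 0.956 in 12 pairs over 18154 genes, so the letters pair the libraries. A count of 0 allows up to 3 counts, for counting error only.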

Additional observations from a re-analysis of the deposited data

How the results depend on the processing

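With edgeR the NTC counts of called histone rows were 0 for gRNA against agoshRNA, 0 for pre-gRNA against agoshRNA, 1 for syn-gRNA against agoshRNA, 0 for syn-gRNA against gRNA and 0 for syn-gRNA against pre-gRNA. With only the 6 libraries of the pair, syn-gRNA against gRNA gave 9, and with a GC offset 7, while the GC offset gave 8 for syn-gRNA against pre-gRNA. Leaving out 1 library, called rows ranged from 0 to 0 for each KD comparison, for KD effects that differ among setups and for pre-gRNA against gRNA. They ranged from 0 to 1 for gRNA and for pre-gRNA against agoshRNA, from 2 to 14 for syn-gRNA against agoshRNA, and from 0 to 7 for syn-gRNA against gRNA and against pre-gRNA. With the column letter as a replicate block, the paired KD comparisons still called 0 histone rows in each setup, with 0, 3, 2 and 3 rows at an unadjusted p under 0.05 for agoshRNA, gRNA, pre-gRNA and syn-gRNA. The block changed no call. The cause of these shifts was not tested. Rows with under 10 counts in every library, 30 of 76, carry no test of their own.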
